A study of Homo sapiens with 6 samples.

Results

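The 50 genes described here are the protein-coding genes of 7 solute carrier families that carry amino acids across membranes (SLC1, SLC3, SLC6, SLC7, SLC36, SLC38 and SLC43). They were taken by name from the 35856 genes of the deposited table. The labels give both groups as HCCLM3, an established human line of hepatocellular carcinoma (HCC), each with 3 RNA-seq libraries. One group had been transfected with a vector carrying the long noncoding RNA LINC00862 and the other, Empty (NC in the sample labels), with an empty vector, and the study's methods name pcDNA3.1 as the overexpression vector. The labels give no dose or time after transfection, and they do not say whether the libraries of a group came from separate cultures, so the p-values measure the spread between these libraries only.

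The libraries held 58241123 to 68229070 counts. Levels are given in FPKM (the fragments of a gene scaled to its transcript length and to the depth of the library), which can be compared between genes, and differences as log2 fold changes of LINC00862 over Empty, fitted to the counts with edgeR. LINC00862 itself had 11, 21 and 6 counts in Empty and 145, 121 and 76 counts in the LINC00862 libraries, with no overlap. Its level was low in both groups, at means of 0.0507 FPKM in Empty and 0.449 FPKM in LINC00862. The log2 fold change of LINC00862 was 3.22 ± 0.53 (standard error, adjusted p = 0.000583 in edgeR). Markers of liver cells were low in Empty: the 10 liver genes in the table, of 11 listed, summed to between 3.05 and 3.6 FPKM in Empty and between 539 and 618 FPKM in the LINC00862 libraries, where FGB (fibrinogen beta chain) alone averaged 550.4 FPKM. Of the 8 that were tested 6 were higher and 2 lower, SERPINA1 (alpha-1 antitrypsin) falling from 1.29 to 0.0950 FPKM and AFP to 0. ALB (albumin) averaged only 0.00780 and 1.51 FPKM, and APOA2 and TTR were at 0 in Empty. Of 12 tested epithelial markers 9 were higher and 1 lower in LINC00862, with a median log2 fold change of 5.99 and with EPCAM, an epithelial adhesion protein, at means of 0.547 and 159.8 FPKM. Their summed levels, 209 to 299 FPKM in Empty and 616 to 752 FPKM in LINC00862, rest in Empty on KRT8 and KRT18 (84.5 and 153 FPKM). Of 11 mesenchymal markers 1 was higher and 9 lower, with sums of 615 to 672 FPKM and 15.4 to 19.9 FPKM and with VIM (vimentin) at means of 538.9 and 3.77 FPKM. The groups thus stood apart in liver, epithelial and mesenchymal markers by far more than the libraries of a group did. Of 5 immune markers 1 was higher and 0 were lower, and of 4 endothelial markers 1 was higher and 0 were lower. Of all tested genes 64.2% were higher or lower. Whether the cells of both groups are the same line was not tested, which bears on every fold change given here. The part of these markers in the values of the transporters was not tested, and in bulk RNA a change in the share of cells that express a gene and a change in RNA per cell cannot be told apart.

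Amino acid transporters of the plasma membrane set which amino acids a cell takes up, which it exchanges and which it keeps. Members of the SLC7 light chain group are exchangers that need a heavy chain of the SLC3 family to reach the membrane, SLC1 and SLC38 members mostly use the sodium gradient to concentrate amino acids, and SLC43 members let them pass downhill. In liver and in liver tumours these carriers feed protein synthesis, glutamine use and the nutrient sensing kinase complex mTORC1, and several of them are induced through the transcription factor ATF4 when amino acids run short.

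Expression of the transporters was mostly higher in the cells overexpressing LINC00862. Of the 50 members 37 (74%) had counts high enough to be tested with edgeR. At an adjusted p under 0.05 in edgeR's quasi-likelihood test, 23 were higher, 6 were lower and 8 were not called. The 29 called members are 78.4% of those tested, where 64.2% of all 20741 tested genes were called. By direction, 62.2% of the tested members were higher and 16.2% lower, where 34.4% of all tested genes were higher and 29.8% lower. The median log2 fold change was 1.52 among the tested members and 0.11 among all tested genes. The 1 tested member at 0 in a whole group (SLC6A14) lies above the members' median by its fitted value and by its lower bound alike, so this choice cannot move it. FPKM did not overlap between the groups for 30 of the 37 members (81.1%), against 71.1% of all tested genes. Among the 29 members with a mean of at least 1 FPKM in either group, 19 were higher and 6 lower, and the 25 called are 86.2%, against 70.6% of all tested genes at that level.

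**Figure D1:**
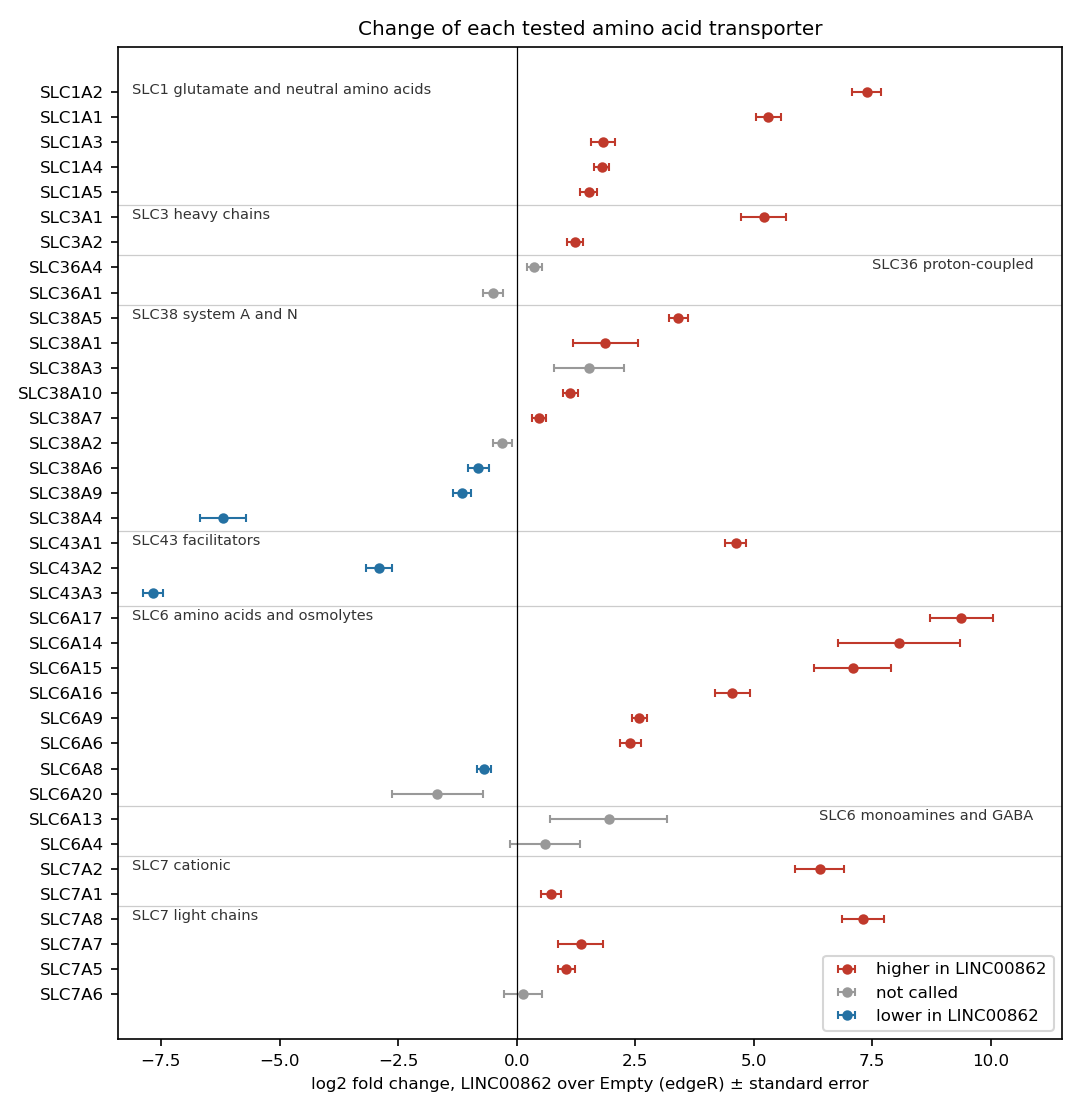
The log2 fold change (LINC00862 over Empty, horizontal axis) of each of the 37 tested members, with its standard error as a bar, grouped by role and coloured by the call of edgeR. The 23 higher members lie right of 0 and the 6 lower members left of it, the point of SLC6A14 has no counts in Empty and is no estimate of a fold, and the SLC38 and SLC43 groups hold changes in both directions.

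In both groups the most abundant member was SLC7A5, the light chain (LAT1) of the exchanger that brings leucine and other large neutral amino acids into the cell. SLC7A5 (ENSG00000103257, chromosome 16, positions 87830023 to 87869507, minus strand, as the deposited table gives them) had 114, 75 and 104 FPKM in Empty and 189, 203 and 146 FPKM in LINC00862. Every LINC00862 library lay above every Empty library, and the log2 fold change came to 1.05 ± 0.18 (standard error, adjusted p = 0.000854). Its partner SLC3A2, the heavy chain 4F2hc (CD98), had 51.1, 56.4 and 61.5 FPKM in Empty and 127, 135 and 94.5 FPKM in LINC00862. The groups did not overlap for SLC3A2 either, and its log2 fold change came to 1.24 ± 0.17 (standard error, adjusted p = 0.00024). The ratio of SLC7A5 to SLC3A2 in FPKM averaged 1.75 ± 0.46 in Empty and 1.51 ± 0.03 in LINC00862 (mean ± SD of 3 libraries), a difference smaller than the spread of the Empty libraries.

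The other light chains were less abundant and differed among themselves. SLC7A8, the light chain LAT2 of the same kind of exchanger, had 0.0960, 0.0339 and 0.0173 FPKM in Empty and 7.27, 7.17 and 6.88 FPKM in LINC00862. It was near 0 in each Empty library and differed little among the LINC00862 libraries, with a log2 fold change of 7.30 ± 0.44 (standard error, adjusted p = 1.38e-06). Without Empty replicate 1, which had 40 counts of SLC7A8 where the other Empty libraries had 14 and 7, the log2 fold change was 8.18. SLC7A6, which exchanges cationic for neutral amino acids, had 14.1, 4.09 and 4.25 FPKM in Empty and 6.78, 8.26 and 6.09 FPKM in LINC00862. Empty replicate 1 was above all other libraries and the other Empty libraries below them, and the log2 fold change of SLC7A6 was 0.13 ± 0.40 (standard error, adjusted p = 0.799). Without Empty replicate 1 the log2 fold change of SLC7A6 was 0.87 (adjusted p = 0.000588), and it was -0.15 and -0.13 without Empty replicate 2 or 3. SLC7A6OS, which overlaps SLC7A6 on the opposite strand by 17321 bases, ran the other way in these libraries, with counts of 816, 2445 and 2731 in Empty and 2080, 979 and 1037 in LINC00862. Whether the counting used strand is not stated in the sources used here, so reads of these overlapping genes may not be told apart. SLC7A7, the SLC7A6 relative of kidney and intestine, had 20, 55 and 30 counts in Empty and 113, 65 and 79 counts in LINC00862. SLC7A7 had a log2 fold change of 1.35 ± 0.48 (standard error, adjusted p = 0.0346), a call that was lost when Empty replicate 1 or 3 or LINC00862 replicate 1 or 3 was left out (log2 fold changes 1.04, 1.27, 1.20 and 1.32). SLC7A7 kept its call in only 7 of 13 alternative fits. The second heavy chain, SLC3A1 (rBAT), which carries cystine exchange in kidney and intestine, had 3, 4 and 8 counts in Empty and 197, 179 and 160 counts in LINC00862. Its mean in LINC00862 was still only 0.385 ± 0.0217 FPKM (SD, n = 3), and its log2 fold change came to 5.21 ± 0.47 (standard error, adjusted p = 1.43e-05). SLC3A1 overlaps PREPL on the opposite strand by 4518 bases, and PREPL had 3443, 2222 and 1881 counts in Empty and 8762, 8031 and 6625 counts in LINC00862.

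All 5 tested members of SLC1 were higher in LINC00862, where 34.4% of all tested genes were higher. SLC1A5 (ASCT2), the sodium-dependent exchanger through which many tumour cells take up glutamine, had 45.9, 43 and 54.1 FPKM in Empty and 129.8, 144 and 94.0 FPKM in LINC00862. Every LINC00862 library was above every Empty library, and the log2 fold change came to 1.52 ± 0.18 (standard error, adjusted p = 8.23e-05). By mean FPKM SLC1A5 stood at rank 4 of the members in Empty and rank 2 in LINC00862. Its values overlapped those of SLC3A2 in both groups and those of SLC43A3 in Empty. SLC1A4 (ASCT1), a carrier of alanine, serine and cysteine, had 5.10, 4.53 and 4.90 FPKM in Empty and 16.6, 17.2 and 11.16 FPKM in LINC00862. For SLC1A4 the log2 fold change came to 1.79 ± 0.16 (standard error, adjusted p = 1.64e-05). The other members are glutamate transporters known best from brain. SLC1A1 (EAAT3) had 0.147, 0.141 and 0.0806 FPKM in Empty and 4.73, 4.39 and 4.02 FPKM in LINC00862, with a log2 fold change of 5.31 ± 0.27 (standard error, adjusted p = 4.39e-07). SPATA6L, which overlaps SLC1A1 on the opposite strand by 34084 bases, also had more counts in LINC00862 (511, 478 and 499) than in Empty (104, 65 and 91). SLC1A2 (EAAT2), the main glutamate carrier of astrocytes, had 23, 14 and 8 counts in Empty and 2610, 2478 and 1970 counts in LINC00862. These are 0.00953 ± 0.00502 FPKM and 1.47 ± 0.179 FPKM (SD, n = 3), and the log2 fold change came to 7.38 ± 0.30 (standard error, adjusted p = 1.46e-07). SLC1A3 (EAAT1) had 0.880, 0.640 and 0.450 FPKM in Empty and 1.86, 1.97 and 2.26 FPKM in LINC00862, with a log2 fold change of 1.82 ± 0.26 (standard error, adjusted p = 0.000244). Thus the tested members of SLC1 that started lowest in Empty, SLC1A2 and SLC1A1, had the largest fold changes, while the largest gain in FPKM was that of SLC1A5. The 4 neuronal and glial markers summed to 0.523 to 0.830 FPKM in Empty and 0.939 to 1.65 FPKM in LINC00862, with SNAP25 and GFAP higher, and their part in the SLC1 values was not tested.

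Of the cationic amino acid transporters of SLC7, SLC7A2 changed far more than SLC7A1. SLC7A2 (CAT2), the arginine and lysine carrier typical of liver, had 0.140, 0.106 and 0.418 FPKM in Empty and 17.6, 18.1 and 14.7 FPKM in LINC00862. It was at most 0.418 FPKM in any Empty library and at least 14.7 FPKM in any LINC00862 library, and its log2 fold change came to 6.39 ± 0.52 (standard error, adjusted p = 8.06e-06). Without Empty replicate 3, which had 221 counts of SLC7A2 where the other Empty libraries had 74 and 55, the log2 fold change was 7.29. SLC7A1 (CAT1), the broadly expressed arginine carrier, had 15.0, 8.31 and 8.47 FPKM in Empty and 15.8, 18.1 and 12.6 FPKM in LINC00862. Its groups overlapped, because Empty replicate 1 was above LINC00862 replicate 3. SLC7A1 had a log2 fold change of 0.73 ± 0.21 (standard error, adjusted p = 0.013), and this call was lost without Empty replicate 2 (0.60, adjusted p = 0.0585), without LINC00862 replicate 2 (0.65, adjusted p = 0.0551), when libraries were scaled by total counts only (0.56, adjusted p = 0.0791) and in limma-trend on FPKM (0.54 and 0.58, adjusted p = 0.0811 and 0.0734). By mean FPKM, SLC7A2 stood at rank 24 of the members in Empty and at rank 9, next to SLC7A1 at rank 10, in LINC00862.

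The SLC38 family, sodium-coupled carriers of glutamine and other small neutral amino acids, held changes in both directions, with 4 of 9 tested members higher, 3 lower and 2 not called. These are 44.4% higher and 33.3% lower, against 34.4% and 29.8% of all tested genes. SLC38A2 (SNAT2), the widely expressed system A carrier, had 106, 63.2 and 58.2 FPKM in Empty and 52.5, 59.1 and 50.1 FPKM in LINC00862. The groups overlapped, with Empty replicate 1 the highest, and the log2 fold change of SLC38A2 was -0.30 ± 0.20 (standard error, adjusted p = 0.213). SLC38A1 (SNAT1), a close relative that supplies glutamine, had 32.2, 17.0 and 2.09 FPKM in Empty and 54.7, 56.6 and 49.7 FPKM in LINC00862. The Empty libraries of SLC38A1 spread widely (17.1 ± 15.0 FPKM, SD, n = 3) while the LINC00862 libraries lay close together (53.7 ± 3.60 FPKM, SD, n = 3), and all of the latter were higher. Over all 6 libraries SLC38A1 had a log2 fold change of 1.87 ± 0.69 (standard error, adjusted p = 0.0392). It was 1.35 (adjusted p = 0.00152) without Empty replicate 3 and 2.63 without Empty replicate 1. The call of SLC38A1 was lost without Empty replicate 2 (1.91, adjusted p = 0.0957), without LINC00862 replicate 1, 2 or 3 (adjusted p = 0.0736, 0.0757 and 0.0886), with library totals only (adjusted p = 0.0666), in DESeq2 (adjusted p = 0.0532) and when every gene with at least 1 count was tested (adjusted p = 0.0577). SLC38A4 (SNAT4), the system A member typical of liver, had 486, 276 and 280 counts in Empty and 8, 2 and 3 counts in LINC00862. The mean of SLC38A4 was 1.26 ± 0.436 FPKM in Empty and 0.0139 ± 0.00899 FPKM in LINC00862 (SD, n = 3), and its log2 fold change came to -6.19 ± 0.49 (standard error, adjusted p = 7.02e-06), or -6.85 without LINC00862 replicate 1. The gene AC008014, which overlaps SLC38A4 on the opposite strand, had 29, 35 and 29 counts in Empty and 364, 252 and 284 counts in LINC00862.

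Among the glutamine carriers of system N, SLC38A5 (SNAT5) had 1.32, 1.43 and 1.47 FPKM in Empty and 15.1, 15.6 and 9.82 FPKM in LINC00862. Without overlap, SLC38A5 had a log2 fold change of 3.41 ± 0.20 (standard error, adjusted p = 1.01e-06). SLC38A3 (SNAT3), the system N carrier of liver, was low in both groups, with 17, 4 and 8 counts in Empty and 12, 21 and 41 counts in LINC00862, and a log2 fold change of 1.53 ± 0.74 (standard error, adjusted p = 0.0995). SLC38A9, the lysosomal arginine sensor that signals to mTORC1, had 4.07, 3.37 and 2.61 FPKM in Empty and 1.24, 1.22 and 1.47 FPKM in LINC00862. All LINC00862 libraries were below all Empty libraries, and the log2 fold change of SLC38A9 was -1.15 ± 0.19 (standard error, adjusted p = 0.000596). SLC38A6 had 1.67, 1.84 and 1.99 FPKM in Empty and 0.996, 0.790 and 0.957 FPKM in LINC00862, again without overlap, and a log2 fold change of -0.81 ± 0.22 (standard error, adjusted p = 0.0108). SLC38A10 was higher, with 9.84 ± 0.968 FPKM in Empty and 19.2 ± 2.82 FPKM in LINC00862 (SD, n = 3) and a log2 fold change of 1.13 ± 0.16 (standard error, adjusted p = 0.000234). SLC38A7, a lysosomal glutamine exporter, had 4.23, 3.34 and 3.93 FPKM in Empty and 4.40, 5.34 and 4.39 FPKM in LINC00862. Its log2 fold change of 0.47 ± 0.14 (standard error, adjusted p = 0.0174) lost the call without Empty replicate 2 (0.39), without LINC00862 replicate 2 (0.41), with the replicate number as a block (adjusted p = 0.0614) and with library totals only (0.31). The call was also lost in limma-trend on FPKM (0.24 and 0.29, adjusted p = 0.145 and 0.148).

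The SLC43 family, which moves large neutral amino acids or purine bases by facilitated diffusion, had 1 member higher and 2 lower. With 3 members tested, these are 33.3% higher and 66.7% lower, against 34.4% and 29.8% of all tested genes. SLC43A3, which carries purine nucleobases rather than amino acids, had 43.5, 40.3 and 47.3 FPKM in Empty and 0.179, 0.164 and 0.210 FPKM in LINC00862. At a log2 fold change of -7.66 ± 0.21 (standard error, adjusted p = 2.94e-08), this was the largest fall among the members. SLC43A1 (LAT3), a leucine and phenylalanine carrier of liver and prostate, had 1.63, 1.67 and 2.28 FPKM in Empty and 44.1, 45.6 and 33.4 FPKM in LINC00862, with a log2 fold change of 4.62 ± 0.22 (standard error, adjusted p = 3.3e-07). SLC43A2 (LAT4), its relative with like substrates, had 1.37, 1.10 and 1.43 FPKM in Empty and 0.203, 0.157 and 0.0982 FPKM in LINC00862, with a log2 fold change of -2.90 ± 0.28 (standard error, adjusted p = 2.42e-05). In none of the 3 did the groups overlap, and they did not in 71.1% of all tested genes. The ratio of SLC43A1 to SLC43A3 in FPKM lay between 0.0374 and 0.0482 in the Empty libraries and between 160 and 278 in the LINC00862 libraries. The ratio of SLC7A5 to SLC43A1 averaged 53.6 ± 14.4 in Empty and 4.37 ± 0.08 in LINC00862 (mean ± SD of 3 libraries). By mean FPKM, SLC43A1 stood at rank 17 of the members in Empty and rank 6 in LINC00862, and SLC43A3 at ranks 5 and 30.

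Among the SLC6 carriers of amino acids and osmolytes 6 of 8 tested members were higher and 1 was lower. Of all tested genes 34.4% were higher and 29.8% lower. SLC6A6, the taurine carrier, had 8.79, 4.63 and 4.42 FPKM in Empty and 28.4, 28.9 and 24.9 FPKM in LINC00862. Every LINC00862 library of SLC6A6 was above every Empty library, of which replicate 1 was the highest, and the log2 fold change came to 2.40 ± 0.23 (standard error, adjusted p = 2.37e-05). SLC6A8, the creatine carrier, had 19.5, 15.9 and 20.2 FPKM in Empty and 10.8, 11 and 8.93 FPKM in LINC00862. It was the 1 member of this group called lower, without overlap, at a log2 fold change of -0.69 ± 0.14 (standard error, adjusted p = 0.00256). SLC6A9 (GlyT1), a glycine carrier, had 1.46 ± 0.154 FPKM in Empty and 7.79 ± 1.31 FPKM in LINC00862 (SD, n = 3), with a log2 fold change of 2.59 ± 0.15 (standard error, adjusted p = 1.26e-06). SLC6A17, a carrier of neutral amino acids on synaptic vesicles, had 6, 0 and 0 counts in Empty and 1552, 1622 and 835 counts in LINC00862. SLC6A17 had a log2 fold change of 9.38 ± 0.67 (standard error, adjusted p = 3.49e-06), and without Empty replicate 1 the Empty libraries that were left had 0 counts, so that no fold can be given. SLC6A16, whose substrate is unknown, had 0.107 ± 0.0407 FPKM in Empty and 2.26 ± 0.477 FPKM in LINC00862 (SD, n = 3), with a log2 fold change of 4.55 ± 0.37 (standard error, adjusted p = 7.64e-06). SLC6A15, a carrier of branched-chain amino acids and proline in brain, had 0, 0 and 4 counts in Empty and 227, 153 and 184 counts in LINC00862, and a log2 fold change of 7.09 ± 0.81 (standard error, adjusted p = 6.28e-05) that rests on the 4 counts of Empty replicate 3. SLC6A14, a broad carrier of neutral and cationic amino acids, had 0 counts in each Empty library and 45, 11 and 40 counts in LINC00862. Against a floor of 3 counts over the 3 Empty libraries, SLC6A14 was at least 30.5-fold higher. SLC6A20, a proline carrier, was low throughout, with 39, 28 and 27 counts in Empty and 24, 5 and 0 counts in LINC00862, without overlap. SLC6A20 had a log2 fold change of -1.67 ± 0.96 (standard error, adjusted p = 0.156), and it was called lower without LINC00862 replicate 1 (-3.43, adjusted p = 0.0260).

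**Figure D2:**
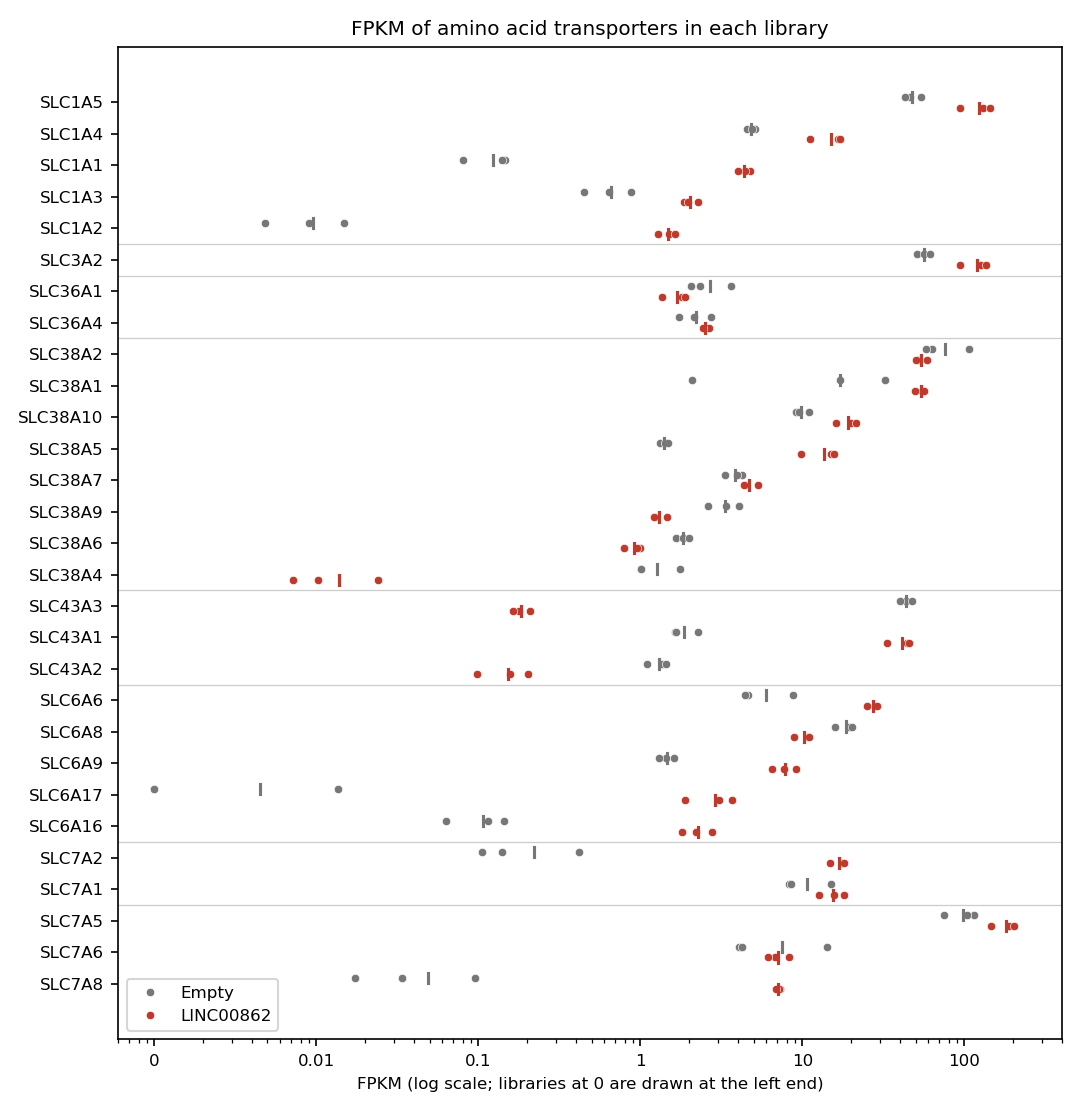
FPKM (horizontal axis, log scale) of the 29 members with a mean of at least 1 FPKM in either group, 1 point per library and a short line at the mean of 3, with libraries at 0 drawn at the left end. The LINC00862 libraries of SLC7A5, SLC1A5 and SLC3A2 lie right of the Empty libraries by less than those of SLC7A2, SLC7A8, SLC1A2 and SLC6A17, and those of SLC43A3 and SLC38A4 lie far to the left.

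The SLC6 carriers of monoamines and GABA and the proton-coupled SLC36 carriers gave no call. Of the first group, SLC6A4, the serotonin carrier, had 9, 25 and 15 counts in Empty and 9, 17 and 41 counts in LINC00862, at a log2 fold change of 0.59 ± 0.74 (standard error, adjusted p = 0.509). SLC6A13, a GABA carrier of liver and kidney, had 0, 0 and 11 counts in Empty and 7, 13 and 20 counts in LINC00862, at a log2 fold change of 1.94 ± 1.24 (standard error, adjusted p = 0.198). Neither reached 0.1 FPKM in any library, and SLC6A13 was called higher (adjusted p = 0.00872) without Empty replicate 3, the only Empty library with counts of it. SLC36A1 (PAT1), which exports small amino acids from lysosomes, had 3.63, 2.06 and 2.33 FPKM in Empty and 1.80, 1.87 and 1.36 FPKM in LINC00862. The groups of SLC36A1 did not overlap but the log2 fold change came to -0.49 ± 0.21 (standard error, adjusted p = 0.0664), and it was called lower without Empty replicate 2 (-0.63, adjusted p = 0.0383) or with library totals only (-0.66, adjusted p = 0.0407). SLC36A4, a related carrier with high affinity for proline and tryptophan, had 2.71, 2.15 and 1.73 FPKM in Empty and 2.46, 2.64 and 2.43 FPKM in LINC00862. Its log2 fold change came to 0.37 ± 0.16 (standard error, adjusted p = 0.0688), and it was called higher without Empty replicate 1 (0.50, adjusted p = 0.0121), under upper quartile scaling (0.59) and in DESeq2 (0.42).

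The 13 untested members had few counts everywhere. SLC1A6, SLC6A2, SLC6A3, SLC6A19, SLC7A13, SLC36A3 and SLC38A11 had 0 counts in the 3 Empty libraries and 6 to 20 counts over the 3 LINC00862 libraries. SLC6A18 and SLC36A2 had 2 and 3 counts in Empty and 0 in LINC00862. SLC6A12, SLC7A4, SLC7A9 and SLC7A14 had counts in both groups, and none of the 4 reached 0.1 FPKM in any library. These include the noradrenaline and dopamine carriers SLC6A2 and SLC6A3 and the neutral amino acid carriers of kidney and intestine SLC6A18 and SLC6A19, and a difference in them was not detectable at this depth. CLTRN, a partner of SLC6A19 at the membrane, was low as well, with means of 0.0176 FPKM in Empty and 0.294 FPKM in LINC00862 (log2 fold change 4.0, standard error 1.07, adjusted p = 0.00934). ARL6IP5, a partner of SLC1A1, had means of 41.1 and 32.8 FPKM and was not called (adjusted p = 0.372). The intestinal markers summed to at most 0.105 FPKM and the kidney markers to at most 0.214 FPKM in any library.

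The summed level of the transporters was higher in each LINC00862 library than in any Empty library, but their share of all FPKM overlapped between the groups. Their FPKM summed to 490.5, 363 and 402 in the Empty libraries, and to 769.7, 825 and 609.9 in the LINC00862 libraries, without overlap. As shares of the library, the counts of the members summed to 3176, 2272 and 2385 CPM in Empty and to 4759, 5104 and 3921 CPM in LINC00862. The FPKM of all genes summed to 296336 to 354830 in Empty and 420733 to 512467 in LINC00862, and of that total the members took 0.166%, 0.102% and 0.123% in Empty and 0.179%, 0.196% and 0.119% in LINC00862, so that LINC00862 replicate 3 lay below Empty replicates 1 and 3. The 10 most abundant genes of all took 8.42% to 11.7% of the counts in Empty and 19.4% to 29.2% in LINC00862, and the part of this in the members' values was not tested. Within the sum, SLC7A5 took 23.3% ± 2.6 in Empty and 24.4% ± 0.4 in LINC00862 (SD, n = 3). The share of the SLC1 group was 12.9% ± 2.1 in Empty and 19.7% ± 1.0 in LINC00862 (SD, n = 3), and that of the cationic SLC7 members was 2.55% ± 0.47 and 4.40% ± 0.08. SLC43 took 11.3% ± 1.7 in Empty and 5.62% ± 0.13 in LINC00862, and SLC36 took 1.16% ± 0.14 and 0.575% ± 0.041. For these 4 groups the libraries did not overlap. Nor did they for the SLC6 carriers of amino acids and osmolytes, with 6.11% to 6.50% in Empty and 6.64% to 7.45% in LINC00862. For SLC38 they did, with 32.8%, 27.8% and 20.5% in Empty and 19.4%, 19.4% and 21.7% in LINC00862. Of the 10 leading members by mean FPKM, 7 were the same in both groups. An exact permutation test over 3 libraries against 3 cannot give a two-sided p below 0.1 for any of these sums or shares.

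**Figure D3:**
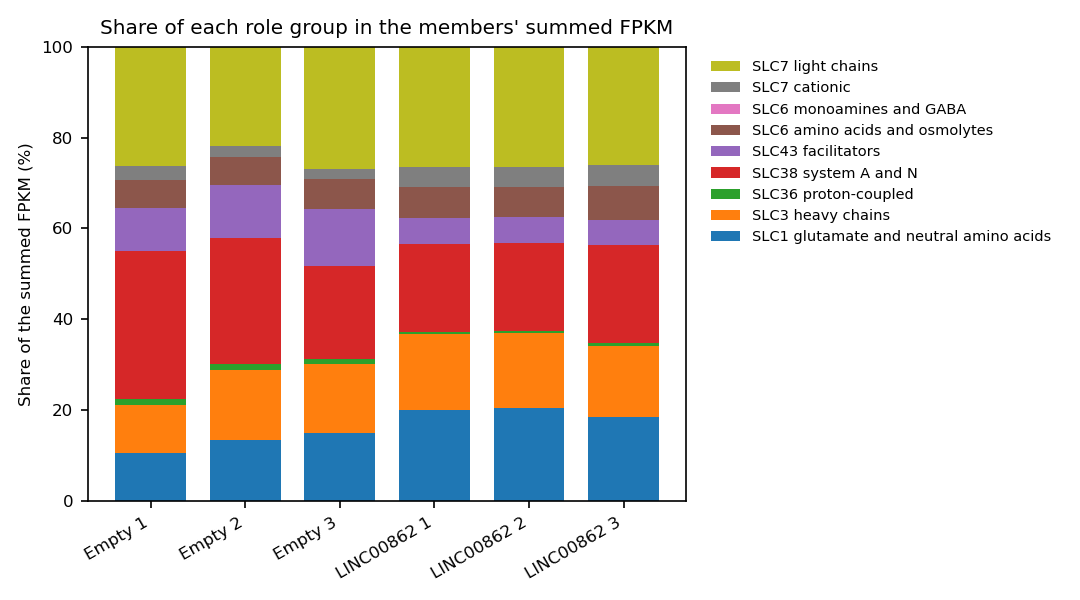
Share of the members' summed FPKM (vertical axis, percent) taken by each role group, 1 bar per library. The SLC1 share is 10.6% to 14.8% in the Empty bars and 18.5% to 20.5% in the LINC00862 bars, and the SLC7 light chains, nearly all SLC7A5, take 21.9% to 26.9% in each of the 6 bars.

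Some members lie side by side in the genome, and on chromosomes 11 and 12 such neighbours differed in direction. On chromosome 11 SLC43A3 (57406954 to 57427580) and SLC43A1 (57484534 to 57515780) lie on the minus strand with 56953 bases and 1 protein-coding gene between them, and they went in opposite directions (log2 fold changes -7.66 and 4.62). On chromosome 12 SLC38A1 (46183063 to 46269951), SLC38A2 (46358188 to 46372773) and SLC38A4 (46764761 to 46825997) follow each other on the minus strand with no other protein-coding gene between them. The gaps are 88236 bases from SLC38A1 to SLC38A2 and 391987 bases from SLC38A2 to SLC38A4. SLC38A1 was higher, a call kept in only 6 of 13 alternative fits, SLC38A2 was not called and SLC38A4 was lower. The ratio of SLC38A2 to SLC38A1 in FPKM was 3.31, 3.71 and 27.8 in the Empty libraries, and with 0.960, 1.04 and 1.01 it was close to even in the LINC00862 libraries. On chromosome 14 SLC7A7 and SLC7A8, 301858 bases and 14 protein-coding genes apart, were both higher, but SLC7A7 reached only 0.230 ± 0.0494 FPKM in LINC00862 and SLC7A8 7.11 ± 0.204 FPKM (SD, n = 3).

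**Figure D4:**
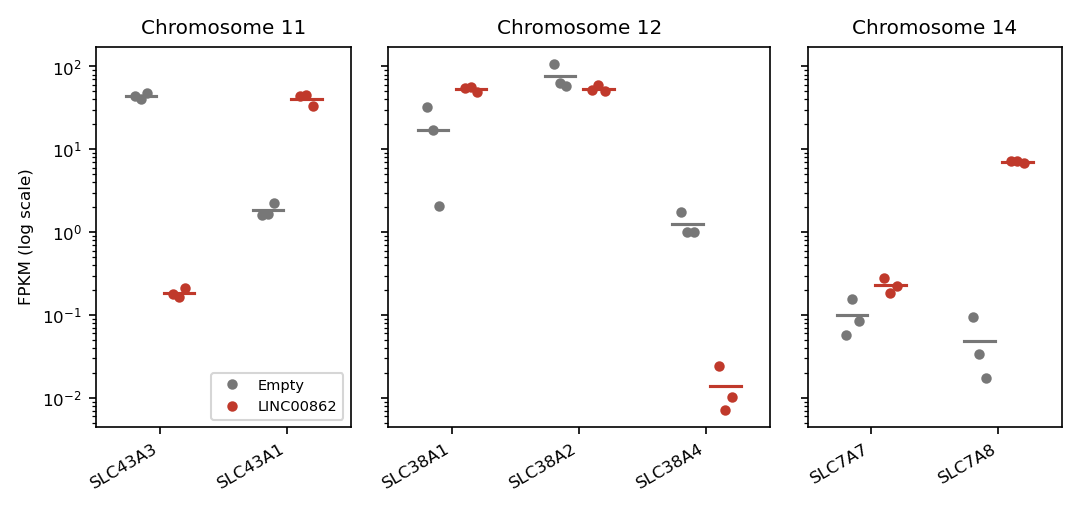
FPKM (vertical axis, log scale) of members that neighbour each other on chromosomes 11, 12 and 14, in genome order, with 1 point per library and a line at the mean of 3. On chromosome 11 the points of SLC43A3 and SLC43A1 change places between the groups, and on chromosome 12 SLC38A1 goes up, SLC38A2 overlaps and SLC38A4 goes down.

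The promoters of the members were read from RefSeq (GRCh38.p14) as windows of 300 bases, 250 before and 50 after a transcript start, and 38 of the 50 members matched, with 60 windows. No window was found for SLC1A2, SLC3A1, SLC6A2, SLC6A3, SLC6A6, SLC6A12, SLC6A15, SLC7A2, SLC7A4, SLC7A13, SLC38A3 and SLC43A3. The windows were searched on both strands for TGATGNAA, the core of the C/EBP and ATF response element through which ATF4 is known to act. It was found in 6 of the 60 windows (10%) and in 1270 of all 35116 windows (3.62%). The 6 windows belong to 6 members, SLC1A3, SLC1A4, SLC1A5, SLC3A2, SLC7A1 and SLC38A1. All 6 were called higher in LINC00862, as were 12 of the 24 other matched and tested members, but SLC7A1 kept its call in only 8 and SLC38A1 in only 6 of 13 alternative fits, and nothing is read from these counts about the core. An E-box, CACGTG, was found in 9 of the 60 windows (15%) and in 7.26% of all windows, and it overlapped the core in none of the 6. Each of the windows with the core is shown, with the matched letters in capitals (TTGCATCA and TTACATCA are matches on the opposite strand). A match is a run of letters and no measured binding site, and the windows of SLC1A3, SLC1A4, SLC1A5, SLC3A2 and SLC38A1 are 1 of several starts of these genes. The SLC1A3 window with the core ends at position 36596637, before the start of SLC1A3 in the deposited table (36606355). The SLC1A3 windows that begin at 36606356 and 36606704 hold no core.
SLC1A4, chr2:64989149-64989448, plus strand: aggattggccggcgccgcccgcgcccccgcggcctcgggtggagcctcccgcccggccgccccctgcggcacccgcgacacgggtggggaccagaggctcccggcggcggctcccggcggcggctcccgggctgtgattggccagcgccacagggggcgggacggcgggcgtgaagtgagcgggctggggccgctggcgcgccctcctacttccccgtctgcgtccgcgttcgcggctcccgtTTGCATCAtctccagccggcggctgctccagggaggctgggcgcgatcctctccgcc
SLC1A3, chr5:36596338-36596637, plus strand: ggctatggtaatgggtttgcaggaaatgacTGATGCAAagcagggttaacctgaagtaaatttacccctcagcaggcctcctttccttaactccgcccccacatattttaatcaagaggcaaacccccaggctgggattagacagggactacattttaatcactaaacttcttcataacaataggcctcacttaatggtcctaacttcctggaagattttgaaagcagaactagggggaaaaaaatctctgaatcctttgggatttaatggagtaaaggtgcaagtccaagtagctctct
SLC3A2, chr11:62881449-62881748, plus strand: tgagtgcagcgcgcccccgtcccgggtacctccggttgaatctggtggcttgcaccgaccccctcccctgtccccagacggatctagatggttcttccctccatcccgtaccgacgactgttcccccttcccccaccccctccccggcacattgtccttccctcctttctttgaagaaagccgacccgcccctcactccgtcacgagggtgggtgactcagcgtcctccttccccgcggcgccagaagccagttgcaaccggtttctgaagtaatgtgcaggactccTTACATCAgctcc
SLC38A1, chr12:46266467-46266766, minus strand: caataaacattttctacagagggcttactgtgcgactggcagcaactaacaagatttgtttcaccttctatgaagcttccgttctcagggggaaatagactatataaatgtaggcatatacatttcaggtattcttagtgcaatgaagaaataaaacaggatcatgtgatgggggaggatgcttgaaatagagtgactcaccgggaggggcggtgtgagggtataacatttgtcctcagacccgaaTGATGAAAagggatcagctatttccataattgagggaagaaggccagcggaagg
SLC7A1, chr13:29595639-29595938, minus strand: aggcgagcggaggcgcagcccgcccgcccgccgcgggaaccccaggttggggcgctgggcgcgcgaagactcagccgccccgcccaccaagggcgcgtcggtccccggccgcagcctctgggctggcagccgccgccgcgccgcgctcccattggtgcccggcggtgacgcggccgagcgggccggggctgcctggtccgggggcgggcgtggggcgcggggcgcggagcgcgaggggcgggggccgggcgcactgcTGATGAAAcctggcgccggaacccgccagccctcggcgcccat
SLC1A5, chr19:46784765-46785064, minus strand: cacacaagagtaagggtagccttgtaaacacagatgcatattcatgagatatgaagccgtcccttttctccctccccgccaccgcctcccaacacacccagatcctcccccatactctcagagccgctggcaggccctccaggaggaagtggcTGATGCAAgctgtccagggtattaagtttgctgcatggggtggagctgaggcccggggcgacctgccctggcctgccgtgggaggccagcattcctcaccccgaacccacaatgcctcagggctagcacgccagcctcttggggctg

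The matches begin 7 bases before the start in SLC1A4, 220 before it in SLC1A3, 97 before it in SLC1A5 and 4 before it in SLC38A1, and 37 and 7 bases after the first base of the transcript in SLC3A2 and SLC7A1. The expression of these 6 members is given above, and SLC1A5 and SLC3A2 are the most abundant of them.

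Genes of the amino acid response, which ATF4 drives when amino acids are scarce, were mostly higher in LINC00862. Of 40 listed genes, all tested, 31 were higher, 6 lower and 3 not called, with a median log2 fold change of 1.26. These are 77.5% higher and 15% lower, against 34.4% and 29.8% of all tested genes. The median of all tested genes was 0.11. ATF4 itself had 129.01, 165 and 169.6 FPKM in Empty and 255, 258 and 232 FPKM in LINC00862. The groups did not overlap and ATF4 had a log2 fold change of 0.85 ± 0.18 (standard error, adjusted p = 0.00256). ASNS (asparagine synthetase), a textbook target of ATF4, had means of 4.24 and 51.2 FPKM and a log2 fold change of 3.76 (standard error 0.14, adjusted p = 9.85e-08). DDIT3 (CHOP), a transcription factor of the stress response, had means of 14.8 and 136 FPKM (log2 fold change 3.35), and CHAC1, which breaks down glutathione, had 1.39 and 12.5 FPKM (log2 fold change 3.33). CTH (cystathionine gamma-lyase) had 1.09 and 17.9 FPKM (log2 fold change 4.20), TARS1 (threonyl-tRNA synthetase) 40.7 and 125 FPKM (1.79), and SESN2, a leucine sensor, 5.14 and 12.8 FPKM (1.48). FGF21, a secreted hormone of the liver, had 0 counts in each Empty library and 142, 172 and 114 counts in LINC00862. Of the genes that fell, JDP2 had means of 2.33 and 0.246 FPKM (log2 fold change -3.07) and BCAT1, an enzyme of branched-chain amino acid breakdown, 3.97 and 1.92 FPKM (-0.87). DDIT4 was also called lower, with 83.4 and 41.2 FPKM (log2 fold change -0.86), as was STC2 with 44.6 and 26.6 FPKM (-0.57). The remaining genes called lower were PHGDH with 8.40 and 5.15 FPKM (-0.55) and CBS with 3.52 and 1.95 FPKM (-0.68).

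The genes through which amino acids are sensed at the lysosome were called about as often as genes in general. Of 39 listed genes of mTORC1 and its regulators, all tested, 9 were higher, 15 lower and 15 not called, with a median log2 fold change of -0.25. Those called are 61.5%, against 64.2% of all tested genes, and 38.5% were lower, against 29.8%. Under upper quartile scaling the counts were 11 higher and 10 lower and with library size only 8 and 19, so the balance of directions depends on the scaling. RRAGA and RRAGC, GTPases that bring mTORC1 to the lysosome, were lower, with means of 48.6 and 20.6 FPKM (log2 fold change -1.07) and of 12.7 and 4.08 FPKM (-1.46). RRAGD, which can take the place of RRAGC, was higher, with 2.06 and 16.9 FPKM (log2 fold change 3.21, adjusted p = 2.62e-07). The transcription factors of lysosomal genes divided as well: TFE3 had 18.8 and 4.21 FPKM (log2 fold change -1.98) and MITF 1.16 and 5.10 FPKM (2.32). Their relative TFEB was called higher, with 0.756 and 1.46 FPKM (log2 fold change 1.09, adjusted p = 0.0139), though its groups overlapped. LAMTOR1, the lysosomal anchor of the complex, had 33.7 and 47.8 FPKM (log2 fold change 0.66), while RHEB with 33.1 and 25.5 FPKM (-0.21, adjusted p = 0.309) and the arginine sensor CASTOR1 with 0.389 and 0.401 FPKM (0.19, adjusted p = 0.754) were not called. SLC38A9, which belongs to the same machinery, was lower as given above.

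Carriers of amino acids and peptides from other families held changes in both directions, and their share of calls was near that of all genes. Of 20 listed genes 18 were in the table and 15 were tested. Of these, 3 were higher, 7 lower and 5 not called, with a median log2 fold change of -0.45. The called share is 66.7%, against 64.2% of all tested genes, and under upper quartile scaling 5 were higher and 5 lower. Of the mitochondrial carriers, SLC25A12, an aspartate and glutamate exchanger, had means of 3.18 and 6.91 FPKM (log2 fold change 1.3), and its relative SLC25A13, the main form in liver, had 12 and 13.5 FPKM and was not called (0.35, adjusted p = 0.0694). SLC25A22, a glutamate carrier, had 7.71 and 5.04 FPKM (log2 fold change -0.45), SLC25A38, a glycine carrier, 12.4 and 6.87 FPKM (-0.68), and SLC25A29, a carrier of basic amino acids, 6.18 and 2.43 FPKM (-1.18). CTNS, the cystine exporter of lysosomes, had 5.42 and 2.58 FPKM (log2 fold change -0.90).

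**Figure D5:**
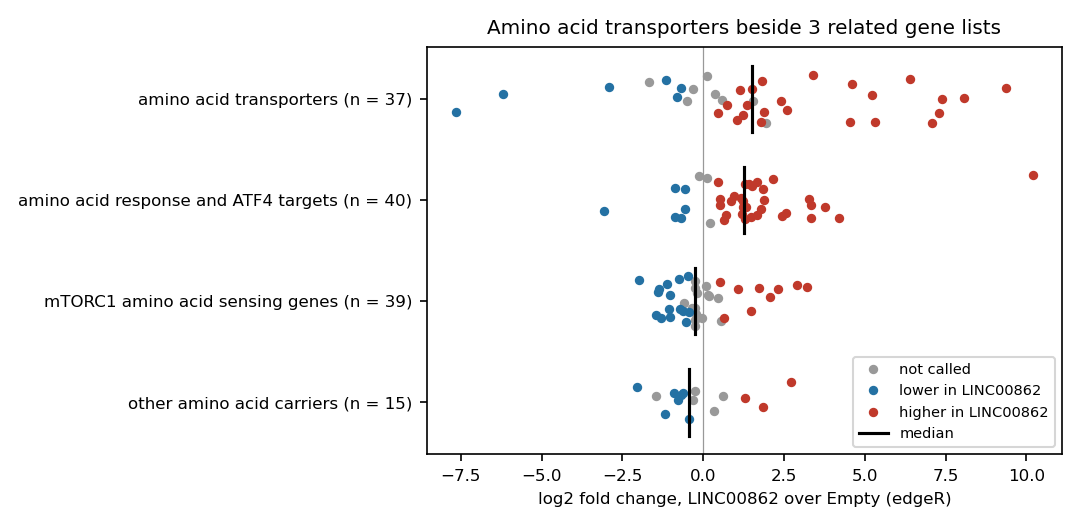
The log2 fold changes (LINC00862 over Empty, horizontal axis) of the tested members and of 3 related gene lists, 1 point per gene spread vertically for legibility, with the median as a black line. The medians are 1.52 for the members and 1.26 for the amino acid response, both right of 0, and -0.25 and -0.45 for the sensing genes and the other carriers, and the points of SLC6A14 and FGF21, which have no counts in Empty, are no estimates of a fold.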

How the data were processed

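RNA-seq of HCCLM3 cells was analysed from 3 Empty and 3 LINC00862 libraries, grouped by the sample labels. Per the labels, polyadenylated RNA was sequenced as paired reads with dUTP strand marking and unique molecular identifiers. The submitters' processing notes name hg38, cutadapt 1.9, HISAT2 2.0.4, UMI-tools, StringTie 1.3.4d, DESeq2 and edgeR. Whether counting used strand or collapsed identifiers is not given in the sources used here. The authors deposited raw read counts per gene, and FPKM, which the authors scaled by transcript length and library. Identifiers pair with symbols in the table.

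Counts were filtered with filterByExpr, scaled by TMM and compared with the quasi-likelihood test of edgeR 4.0.16 in R 4.3.3, with Benjamini-Hochberg adjustment over all 20741 tested genes at 0.05. Standard errors were derived from the F statistic. FPKM served for levels and overlap. Folds against a group at 0 used a floor of 3 counts over the group, which covers counting error only. The fit was tested on simulated data. The members and gene lists were chosen with earlier results of these data known. Members given in every library were the 2 most abundant of each role group, the 6 largest called rises and falls with at least 1 FPKM in a group, and others of the same families. List genes were named by level, size of change, by name or as relatives of these, and every amino acid response gene called lower was named. The name pattern found 52 genes: 1 has no protein-coding transcript and 1 is not reported here. Same-numbered libraries did not deviate together (correlations -0.15, -0.26 and -0.15), so the numbers were not used as pairs. Alternatives were DESeq2 1.42.0, upper quartile scaling, library size only, every gene with at least 1 count, limma-trend (3.58.1) on log2(FPKM + 1) and log2(FPKM + 0.1), a replicate block, a test against a 2-fold change, a false discovery rate of 0.01, and leaving out each library.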

Additional observations from a re-analysis of the deposited data

How the results depend on the processing

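Over 13 alternative fits, 444 of 481 member values kept their direction and side of the threshold, 24 lost a call, 9 gained one and 4 changed direction, and 27 of 37 members kept both throughout. The members called higher numbered 20 to 24 and lower 6 or 7 over all of these fits, the same range as when each library was left out. A test against a 2-fold change left 16 members higher and 3 lower (43.2% and 8.11% of those tested), against 4806 and 3204 of all tested genes (23.2% and 15.4%). At a false discovery rate of 0.01, 19 members were higher and 5 lower (51.4% and 13.5%), against 28.2% and 24.2% of all tested genes. Upper quartile scaling called 5 of the other amino acid carriers higher. The direction changed for SLC7A6, at -0.07 with library size only and between -0.15 and 0.87 when single libraries were left out, and for SLC6A4, at -0.30 without LINC00862 replicate 3 (range -0.30 to 1.07). The cause was not tested. Over all tested genes the median log2 fold change came to 0.11 with TMM, 0.32 with upper quartile scaling, -0.05 with library size only and 0.16 in DESeq2, and that of the members 1.52, 1.73, 1.31 and 1.57. With limma-trend the median of the members was 0.46 on log2(FPKM + 1) and 0.94 on log2(FPKM + 0.1), where the added constant shrinks the fold of low genes. Among all called genes 53.6% were higher with TMM, 60.4%, 48.5% and 55.1% in the same order. The replicate block gave 21 higher and 6 lower members (6542 and 5556 of all genes), and it lost the calls of SLC38A7 and SLC7A7. Depth limits the 13 untested members.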
